A study of Homo sapiens with 6 samples.

Results

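The genes described here are 35 regulators and transcriptional targets of the tumour suppressor p53, taken outside the BCL2 family and the CDK inhibitors, and all 35 were among the 23698 gene rows of the deposited tables. They were measured by poly(A) RNA-seq in MV4-11, an established acute myeloid leukaemia line with a FLT3 internal tandem duplication. In 3 libraries the cells carried, by stable lentiviral transduction, a short hairpin RNA against PRMT5, a protein arginine methyltransferase. In the other 3 libraries the same line carried a scrambled vector, so lentiviral transduction was common to both groups. Both groups were of 1 cell line, and the labels name no separate cultures for the replicates, so the p-values measure only the spread between these libraries, which may be technical. The study asked how gene expression differs between the groups.

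p53 is a transcription factor that is activated by DNA damage and other stress. MDM2, an E3 ubiquitin ligase, and its relative MDM4 keep p53 in check, and because MDM2 is itself a p53 target the pair forms a negative feedback loop. Other targets carry out cell-cycle arrest, DNA repair, antioxidant defence and cell death. PRMT5 has been reported to methylate p53 and to act on the splicing of MDM4 transcripts, and counts per gene do not separate MDM4 isoforms.

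PRMT5, the targeted gene, was at 103, 71.6 and 52.95 CPM (counts scaled to a common library depth with TMM factors) in knockdown 1 to 3, against 133, 53.1 and 158 CPM in the libraries labelled scrambled control 1 to 3. The library labelled scrambled control 2 thus held a knockdown-like PRMT5 level, which goes against its label, and it also stood apart across genes, with correlations of log2 CPM of 0.876 to 0.923 with the other 5 libraries, which correlated with each other at 0.952 to 0.995. The log2 difference in PRMT5, knockdown minus control, was −0.60 (SE 0.43), or −0.94 without that library. Library totals were 16408500 to 19077100 estimated counts. The 10 myeloid and leukaemia markers of the line summed to 1317 to 2375 CPM under knockdown, set against 1438 to 2098 CPM with the scrambled vector. These sums hide differences in the library labelled scrambled control 2. It held LYZ and MPO at 35.3 and 13.8 CPM (control 1, 429 and 502; control 3, 979 and 82.9). HOXA9 and MEIS1 were at 296 and 102 CPM in it (control 1, 96.1 and 32.2, and control 3, 85.5 and 32.9). FLT3 and CD33 were closer, at 436 and 52.7 CPM (control 1, 478 and 43.9, and control 3, 515 and 50.6). Markers of T cells summed to at most 1.12 CPM, with CD3E at 0, and those of erythroid cells to at most 1.09 CPM, with HBA1, HBA2 and HBB at 0. Those of fibroblasts and epithelial cells summed to at most 6.69 and 52.0 CPM, both in the library labelled scrambled control 2. The B cell list summed to 6.55 to 15.9 CPM, nearly all of it PAX5.

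No p53 regulator or target passed the test across all genes, and most members were nevertheless somewhat higher in the knockdown libraries. Of the 35 members, 34 passed the filter on low counts and 1, SPATA18, did not. With edgeR's quasi-likelihood test, 0 of the 34 had an adjusted p under 0.05, as had 0 of 13668 genes (0%), and the members' adjusted p-values were 0.926 to 0.997. At an unadjusted p under 0.05, 3 members were higher, CYFIP2, DRAM1 and TRIM22, against 0.571% of all tested genes, and 0 were lower, against 1.2%. The median log2 difference of the 34 members was 0.20, beside −0.0007 over all tested genes, and 24 of the 34 were above 0, where 49.9% of all genes were. All 3 knockdown libraries lay above all 3 controls for 5 members, MDM2, FAS, TRIAP1, DRAM1 and TRIM22, where 3.14% of genes did. They lay below them for 0 members, where 3.1% of genes did.

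These counts depended on single libraries, in both directions. When knockdown 1 was left out, 18 of the 34 members were higher, near the 49.9% of all genes that were higher with all libraries. The median was then 0.037, beside −0.0006 over all genes. Leaving out control 1 gave 19 members and a median of 0.073, beside 0.007 over all genes. Leaving out control 3 gave 20 members and a median of 0.13, beside 0.016 over all genes. Without control 3, 7 members had an unadjusted p under 0.05, of which 2 were higher and the rest lower. In that fit 1307 of 13936 genes had one in either direction, where 242 of 13668 did with all libraries. Without knockdown 2, 0 members had one (110 of 13838 genes), and likewise without control 1 (373 of 13886 genes). Without knockdown 1 there was 1 (33 of 13904 genes). The library labelled scrambled control 2 held 13 of the 34 members at more than 2-fold above controls 1 and 3, where 15.1% of genes were that far above, and 1 member, TP53I3, at more than 2-fold below, where 15.2% of genes were. Without that library, 32 of the 34 members were higher in the knockdown (50.4% of 13853 genes), with a median log2 difference of 0.50, beside 0.002 over all genes. The exceptions were MDM4 (−0.10) and TNFRSF10C (−0.11). Then 7 members were higher at an unadjusted p under 0.05 (0.556% of genes) and 0 were lower (0.188%), while no member and no gene passed the adjusted test in edgeR (smallest adjusted p = 0.99996). The 3 knockdown libraries lay above controls 1 and 3 for 15 of the 34 members (5.27% of genes) and below them for 0 (4.88%). Knockdown 1 also stood out, with 16 of the 34 members at their highest in it, where 18.5% of genes were. With both knockdown 1 and the library labelled scrambled control 2 left out, 29 of 34 members were higher (49.4% of genes), the median was 0.30, and 3 members were higher (0.211%) and 0 lower (0.0292%) at an unadjusted p under 0.05. With both libraries numbered 2 left out, 32 of 33 tested members were higher, where 49.5% of genes were, 6 of them at an unadjusted p under 0.05 (0.183% of genes), with 0 lower (0.213%).

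**Figure D1:**
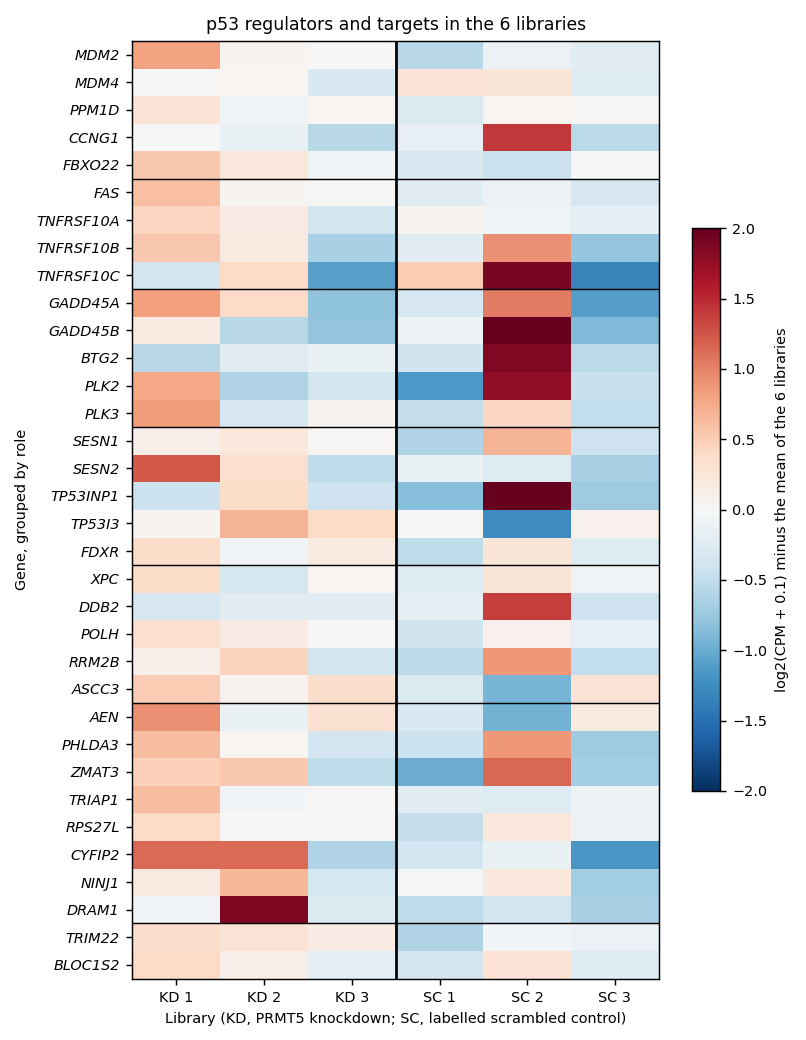
Level of 34 p53 regulators and targets (listed down the page by role) in the 3 knockdown (KD) and 3 scrambled control (SC) libraries (columns), as log2(CPM + 0.1) minus the gene's mean over the 6 libraries, with colours clipped at 2 in each direction. Knockdown 1 is red for most genes, controls 1 and 3 are blue for most genes, and the library labelled scrambled control 2 holds the strongest red cells and some blue ones.

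**Figure D2:**
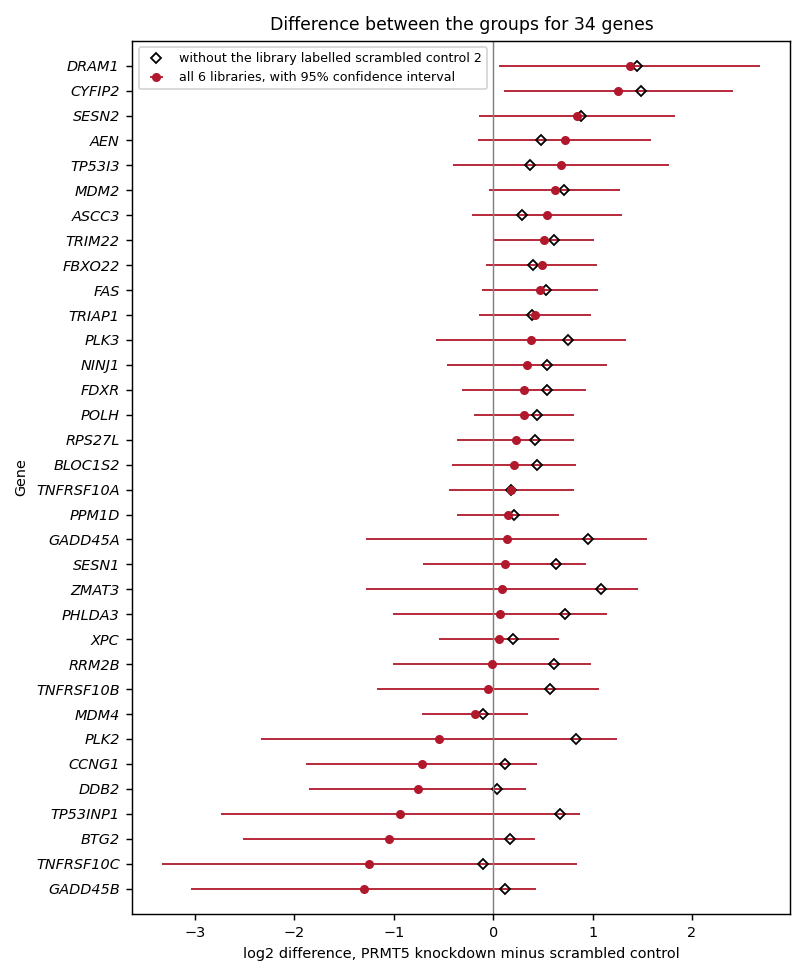
The log2 difference of knockdown minus control for each of the 34 genes, with its 95% confidence interval (circles, all 6 libraries) and without the library labelled scrambled control 2 (open diamonds). With all libraries 24 genes lie right of 0, and without that library 32 do.

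Promoter sequences show where some members carry a decamer that is part of the motif that p53 binds. RefSeq promoter windows (GRCh38.p14, 250 bases before to 50 bases after the annotated start) were at hand for 25 of the 35 members, and an exact match to the p53 consensus decamer, which reads the same on both strands, was found for 7 of the 25. Over all genes with such a window, 8.06% of 27305 had a match. The decamers are printed in capitals because they are units of the site through which p53 contacts its targets. A single decamer is only part of a full site, and of the 7 genes only DDB2 had 2 exact matches. The match began at position −122 from the start in FAS, −11 in FDXR, −59 in RPS27L, −49 in SESN1, −34 in AEN and −132 in PLK2. DDB2 had matches at positions 6 and 17, after the start. A match describes the letters of the window and is no evidence of p53 binding in these cells.
FAS (chr10:88991249-88991328, plus strand): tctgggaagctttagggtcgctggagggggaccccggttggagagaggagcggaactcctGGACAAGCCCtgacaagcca
FDXR (chr17:74872986-74873065, minus strand): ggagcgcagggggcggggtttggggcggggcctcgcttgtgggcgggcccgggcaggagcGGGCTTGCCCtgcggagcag
RPS27L (chr15:63157517-63157596, minus strand): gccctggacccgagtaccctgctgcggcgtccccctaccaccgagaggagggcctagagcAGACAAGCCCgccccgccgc
SESN1 (chr6:109009018-109009097, minus strand): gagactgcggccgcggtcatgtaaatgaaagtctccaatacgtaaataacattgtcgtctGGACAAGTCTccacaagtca
AEN (chr15:88621246-88621325, plus strand): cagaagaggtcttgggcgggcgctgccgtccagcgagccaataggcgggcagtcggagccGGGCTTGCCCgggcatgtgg
PLK2 (chr5:58460199-58460278, minus strand): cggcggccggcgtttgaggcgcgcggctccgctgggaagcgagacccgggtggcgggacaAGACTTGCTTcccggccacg
DDB2 (chr11:47214919-47214999, plus strand): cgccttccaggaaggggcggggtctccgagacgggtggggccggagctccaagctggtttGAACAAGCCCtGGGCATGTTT

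Among the inhibitors and feedback regulators of p53, MDM2 was the member whose groups were apart. MDM2 (chromosome 12 in the deposited tables) was at 518, 307 and 296 CPM in knockdown 1 to 3, against 201, 273 and 255 CPM in the libraries labelled scrambled control 1 to 3. The 3 knockdown values lay above the 3 control values, and the gap between knockdown 1 and control 1 was the widest. Its mean was 373 ± 125 CPM in the knockdown and 243 ± 37.2 CPM with the scrambled vector (SD, n = 3 each). The log2 difference was 0.62 (SE 0.28, 95% confidence interval −0.04 to 1.28), which missed the threshold (adjusted p = 0.926 with edgeR). Leaving out the library labelled scrambled control 2 gave 0.71, and leaving out knockdown 1 gave 0.30. MDM2 exons overlap those of a gene on the other strand, carboxypeptidase M, and reads from the overlap cannot be told apart without strand. The same holds for FBXO22, FAS, TNFRSF10B, PLK3, TP53I3, XPC, POLH and CYFIP2, each of which overlaps a gene on the other strand, while TRIM22 overlaps a gene on its own strand.

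MDM4 (chromosome 1), which inhibits p53 by binding its transactivation domain, went the other way, with a small difference. It was at 128, 130.2 and 103 CPM in knockdown 1 to 3, against 153, 151 and 106 CPM in the libraries labelled scrambled control 1 to 3. The groups overlapped, because both libraries numbered 3 were low, and MDM4 was the only member lower in the knockdown library of all 3 same-numbered pairs, as were 14.1% of all genes. The log2 difference was −0.18 (SE 0.23, 95% confidence interval −0.72 to 0.35), an interval that leaves room for a change of either sign.

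PPM1D (chromosome 17) encodes the WIP1 phosphatase, which dephosphorylates p53 and its upstream kinases and closes another feedback loop. It was at 34.96, 27.2 and 29.6 CPM in knockdown 1 to 3, against 23.7, 29.8 and 29.4 CPM in the libraries labelled scrambled control 1 to 3, and the groups overlapped. The log2 difference was 0.15 (95% confidence interval −0.37 to 0.66). FBXO22 (chromosome 15), a substrate receptor of an SCF ubiquitin ligase, was at 93.6, 75.1 and 61.97 CPM under knockdown, set against 52.1, 47.5 and 64.9 CPM with the scrambled vector, with overlap only in the libraries numbered 3. Its log2 difference was 0.49 (SE 0.24), or 0.32 when knockdown 1 was left out. CCNG1 (chromosome 5), or cyclin G1, which recruits a phosphatase to MDM2, had a log2 difference of −0.72 (SE 0.50) that turned to 0.12 without the library labelled scrambled control 2. CCNG1 was at 155 to 227 CPM under knockdown, and the scrambled controls 1 and 3 held 205 and 158 CPM, where that library held 606 CPM.

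**Figure D3:**
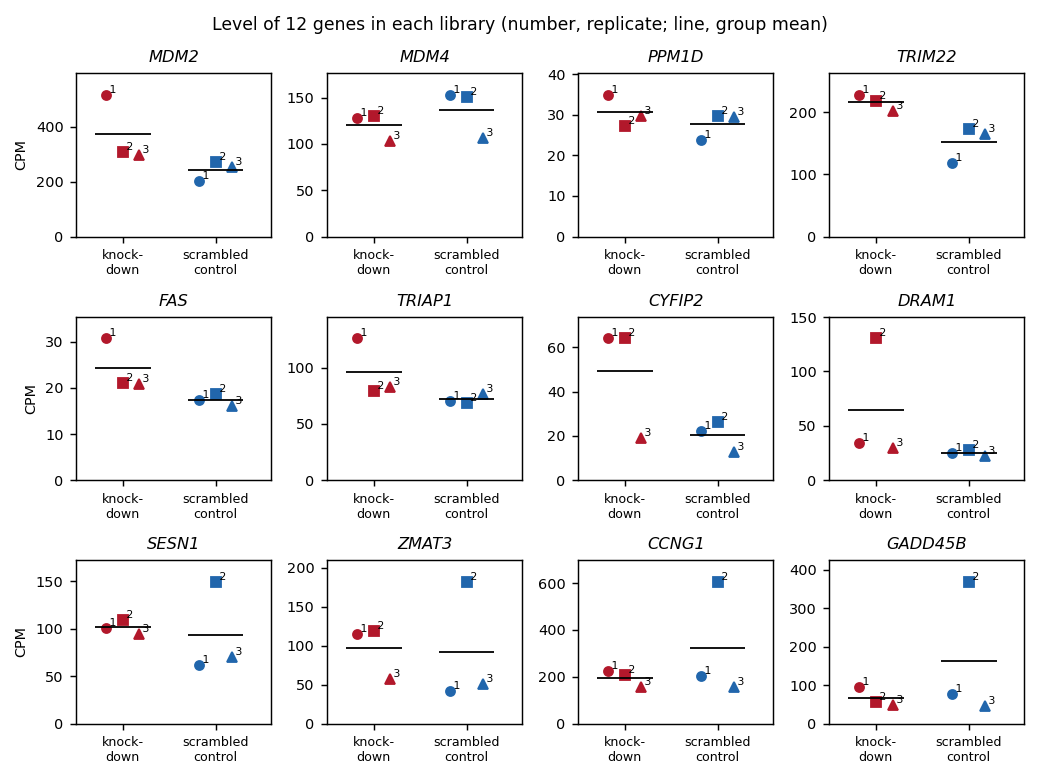
CPM of 12 genes in each library (point, with its replicate number) and the mean of each group (line), on linear axes from 0. MDM2, TRIM22, FAS, TRIAP1 and DRAM1 have all 3 knockdown points above all 3 control points, while for SESN1, ZMAT3, CCNG1 and GADD45B the library labelled scrambled control 2 is the highest of the 6.

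The death receptors divided into FAS, whose groups were apart, and the TRAIL receptors, whose groups overlapped. FAS (chromosome 10), the receptor of FAS ligand, was at 30.8, 21.1 and 20.8 CPM in knockdown 1 to 3, against 17.5, 18.7 and 16.2 CPM in the libraries labelled scrambled control 1 to 3. Every knockdown value lay above every control value, with a log2 difference of 0.47 (SE 0.25, 95% confidence interval −0.11 to 1.06, adjusted p = 0.926 in edgeR). Leaving out knockdown 1 gave 0.25. FAS exons overlap those of ACTA2 on the opposite strand, which encodes smooth-muscle actin and was at 27.7, 28.3 and 16.96 CPM under knockdown, set against 12.9, 13.1 and 13.1 CPM with the scrambled vector, a log2 difference of 0.90 (SE 0.27). Reads of the overlap could have been credited to either gene. TNFRSF10A and TNFRSF10B (both on chromosome 8), the signalling TRAIL receptors, had log2 differences of 0.18 and −0.05. TNFRSF10B was at 473, 367 and 207 CPM in knockdown 1 to 3, against 282, 609.5 and 189.9 CPM in the libraries labelled scrambled control 1 to 3, so it was higher in the knockdown by 0.57 without the library labelled scrambled control 2. TNFRSF10C, a decoy receptor without a death domain, was near the floor, at 0.270 to 0.938 CPM under knockdown, set against 0.214 to 2.83 CPM with the scrambled vector. These receptors are near relatives in sequence, so how reads were split between them is uncertain.

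Of the 5 growth-arrest genes, 3 were below 0 with all libraries and 5 of 5 were above 0 without the library labelled scrambled control 2. Over all genes, 49.9% were above 0 with all libraries and 50.4% without that one. GADD45B (chromosome 19), a stress sensor that binds cell-cycle and repair proteins, was at 94.0, 56.6 and 47.8 CPM in knockdown 1 to 3, against 77.0, 369 and 44.7 CPM in the libraries labelled scrambled control 1 to 3. That single high control value set the log2 difference of −1.30 (SE 0.75), which was 0.12 without it. BTG2, an antiproliferative cofactor of mRNA deadenylation, and PLK2, a polo-like kinase, had log2 differences of −1.05 and −0.55, and of 0.17 and 0.83 without that library, which held 187 and 46.4 CPM of them. GADD45A, the relative of GADD45B induced by DNA damage, had 0.13 (SE 0.61) with all libraries and 0.96 without that one. PLK3, a stress-activated polo-like kinase, had 0.38 (SE 0.41) and was at 23.6, 10.5 and 13.7 CPM under knockdown, set against 9.47, 17.8 and 9.41 CPM with the scrambled vector.

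Among the antioxidant and metabolic targets, 4 of 5 were above 0 (49.9% of all genes), SESN2 furthest, and TP53INP1 was below 0. SESN2 (chromosome 1), a sestrin that restrains mTORC1 and is also induced by amino acid stress, was at 142, 76.5 and 42.6 CPM in knockdown 1 to 3, against 55.8, 50.95 and 38.7 CPM in the libraries labelled scrambled control 1 to 3. The groups overlapped because of knockdown 3, and the log2 difference was 0.84 (SE 0.42, 95% confidence interval −0.14 to 1.83). It was 0.29 when knockdown 1 was left out. SESN1 (chromosome 6), a sestrin regulated mainly by p53, was at 101, 109 and 94.9 CPM under knockdown, set against 61.5, 149.6 and 70.3 CPM with the scrambled vector. Its log2 difference was 0.12 (SE 0.35) with all libraries and as low as −0.11 with another single library left out. Its knockdown values were close together and above controls 1 and 3. The library labelled scrambled control 2 held the highest value, so leaving it out raised the difference and lowered the p. The difference was then 0.63 (SE 0.17, unadjusted p = 0.00822, adjusted p = 0.99996 in edgeR). FDXR, a mitochondrial ferredoxin reductase, had 0.31 with all libraries and 0.54 without that library. TP53INP1, which promotes p53 phosphorylation and autophagy, had −0.94 and 0.68, and was at 16.5, 28.5 and 16.6 CPM in knockdown 1 to 3, against 12.3, 92.3 and 13.5 CPM in the libraries labelled scrambled control 1 to 3. TP53I3, a quinone reductase-like enzyme, had 0.68 (SE 0.47) at 2.30 to 3.59 CPM under knockdown, set against 0.875 to 2.33 CPM with the scrambled vector.

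The repair genes had differences of at most 0.54 above 0. ASCC3 (chromosome 6), the helicase of the activating signal cointegrator complex, had a log2 difference of 0.54 (SE 0.32), or 0.29 when the library labelled scrambled control 2 was left out, and POLH, the translesion polymerase eta, had 0.31 (SE 0.21). POLH was at 131, 116 and 104 CPM in knockdown 1 to 3, against 79.4, 111 and 92.9 CPM in the libraries labelled scrambled control 1 to 3, and knockdown 3 alone lay within the control range. XPC and DDB2, which recognise damage in nucleotide excision repair, had 0.06 and −0.76. DDB2 was at 56.7, 61.9 and 61.4 CPM in knockdown 1 to 3, against 63.0, 188 and 54.2 CPM in the libraries labelled scrambled control 1 to 3. Leaving out the high control, the log2 difference of DDB2 was 0.04 (SE 0.17), among the smallest of the members. RRM2B, the p53-inducible ribonucleotide reductase subunit, had −0.01 (SE 0.43) and 0.61 without that library.

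Effectors of death, survival and autophagy lay above 0 in 8 of 8 tested cases (median 0.38 on the log2 scale), where 49.9% of all genes did. Between knockdown 2 and the library labelled scrambled control 2, 5 of the 8 were higher in the knockdown, where 52.1% of genes were. Of the 8 differences, those of PHLDA3 and ZMAT3 turned to as low as −0.25 and −0.26 when single libraries were left out. CYFIP2 (chromosome 5), a WAVE complex subunit, was at 64.1, 64.2 and 19.1 CPM in knockdown 1 to 3, against 22.3, 26.5 and 12.9 CPM in the libraries labelled scrambled control 1 to 3. Knockdown 3 lay among the controls while it exceeded control 3, and the log2 difference was 1.26 (SE 0.49, unadjusted p = 0.0362, adjusted p = 0.926, edgeR). DRAM1 (chromosome 12), a lysosomal membrane protein of autophagy, was at 34.1, 131 and 29.6 CPM under knockdown, set against 25.02, 27.4 and 22.6 CPM with the scrambled vector. The groups did not overlap, although the log2 difference of 1.37 (SE 0.56) rested on knockdown 2, without which it was 0.35.

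The nuclease gene AEN (chromosome 15), which acts in apoptosis, was at 111, 53.4 and 72.8 CPM in knockdown 1 to 3, against 47.4, 30.4 and 66.4 CPM in the libraries labelled scrambled control 1 to 3. Each knockdown library exceeded the control of the same number while the groups overlapped, and the log2 difference was 0.72 (SE 0.37), or 0.39 when knockdown 1 was left out and 0.48 when the library labelled scrambled control 2 was. TRIAP1 (chromosome 12), which inhibits apoptosis and works in mitochondrial lipid transfer, was at 126, 79.1 and 83.3 CPM under knockdown, set against 70.2, 68.8 and 76.6 CPM with the scrambled vector. Its groups did not overlap, with a log2 difference of 0.42 (SE 0.24) that was 0.17 when knockdown 1 was left out. ZMAT3 (chromosome 3), an RNA-binding splicing regulator, was at 115, 119 and 57.9 CPM under knockdown, set against 41.3, 182 and 50.9 CPM with the scrambled vector. Its log2 difference was 0.09 (SE 0.59) with all libraries and 1.08 (SE 0.34, unadjusted p = 0.0152, adjusted p = 0.99996 in edgeR) when the library labelled scrambled control 2 was left out. That library held the highest ZMAT3 value, so leaving it out raised the difference and lowered the p. PHLDA3, an inhibitor of AKT, RPS27L, a paralog of a ribosomal protein whose reads may be shared with it, and NINJ1, which mediates plasma membrane rupture, had 0.07, 0.23 and 0.34, and 0.72, 0.42 and 0.54 when that library was left out. SPATA18, a mitophagy gene, held at most 4 counts in any library and was not tested.

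TRIM22 and BLOC1S2 complete the list. TRIM22 (chromosome 11), an interferon- and p53-inducible tripartite motif protein, was at 229, 218 and 202 CPM in knockdown 1 to 3, against 118, 173 and 165 CPM in the libraries labelled scrambled control 1 to 3. Its groups did not overlap, and it had the tightest knockdown values of the 5 members of which that was true, relative to their mean. Its mean was 216 ± 13.4 CPM in the knockdown and 152 ± 29.4 CPM with the scrambled vector (SD, n = 3 each), a log2 difference of 0.51 (SE 0.22, unadjusted p = 0.0497, adjusted p = 0.926, edgeR). BLOC1S2, a subunit of the BLOC-1 and BORC complexes that place lysosomes, had 0.21 (SE 0.27), which was 0.44 when the library labelled scrambled control 2 was left out.

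The libraries with the same number gave 3 different pictures. The check in the processing section treats them as pairs, although it bears out number 1 only weakly and number 2 not separately from number 3. In pair 1 the members' median log2 CPM difference was 0.76, and 22 of 34 were more than 1.5-fold higher in the knockdown, where 8.22% of genes were, while 1, TNFRSF10C, was more than 1.5-fold lower, where 14.2% of genes were. PRMT5 differed by −0.36 in this pair. In pair 2, with the library labelled scrambled control 2, the median was −0.22, 7 members were more than 1.5-fold higher (27.6% of genes) and 13 more than 1.5-fold lower (23.7%), and PRMT5 differed by 0.43.

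Pair 3 held the lowest and the highest PRMT5 value of the 6 libraries, 52.95 CPM in knockdown 3 and 158 CPM in control 3, a ratio of 0.334 (95% exact interval 0.311 to 0.359, counting error only). Across genes these libraries were the most alike of all, with r = 0.995 and a mean chi-square of 3.63 per gene between their counts, where 41.7 to 304 was found for the other 14 combinations. In this pair 30 of 34 members were higher in the knockdown, where 49.6% of genes were, and 0 were more than 1.5-fold higher (2.4% of genes) or lower (1.5%). The members' median difference was 0.17, beside −0.002 over all genes, and the members ranged over −0.18 to 0.56. The members at the top were CYFIP2 with a ratio of 1.48 (95% exact interval 1.25 to 1.75), PLK3 with 1.45 (1.19 to 1.77) and SESN1 with 1.35 (1.26 to 1.45). MDM2 had 1.16 (1.12 to 1.21), and MDM4 had 0.97 (0.91 to 1.03). These intervals compare a pair of libraries, not the conditions, and cover counting error only. In all 3 pairs together, 12 of 34 members were higher in each knockdown library, where 14.6% of genes were.

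**Figure D4:**
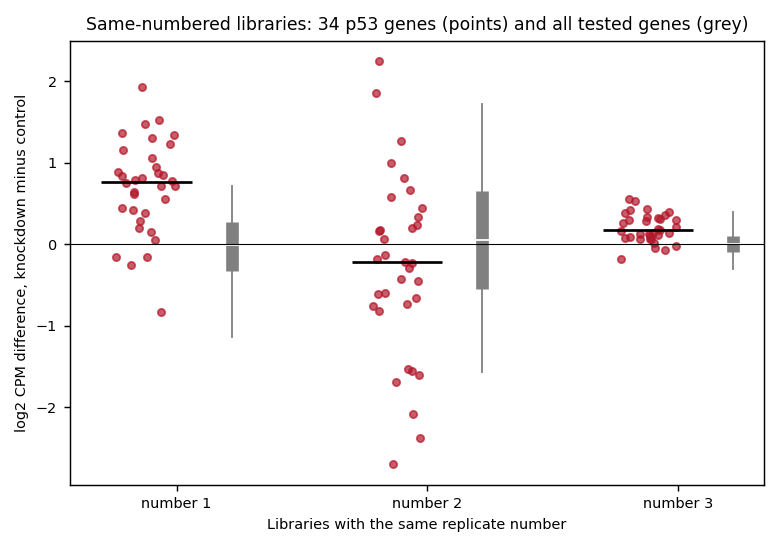
Difference in log2 CPM between the knockdown and the control library of the same number for 34 p53 regulators and targets (points; black line, their median) and for all 13668 tested genes (grey bar, middle 50%; thin line, 5th to 95th percentile; white mark, median). The members' median is 0.76, −0.22 and 0.17 at numbers 1 to 3, and the spread of all genes is narrowest at number 3.

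With the replicate number as a block, 26 of 34 members were above 0, where 50.5% of genes were, and 5 members had an unadjusted p under 0.05 (1.4% of genes higher, 1.79% lower), against 3 without it. They were SESN2, ASCC3, AEN, CYFIP2 and DRAM1, all higher, and CYFIP2 had a log2 difference of 1.13 (SE 0.26, unadjusted p = 0.00413, adjusted p = 0.709, edgeR). No gene passed the adjusted test in the block fit.

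The members most like MDM2 over the 6 libraries, by Pearson correlation of log2 CPM among 33 members, were FAS, TRIAP1 and POLH. FAS had r = 0.94 (exact permutation p = 0.0125, adjusted p = 0.188) and Spearman's rho = 0.94 (exact permutation p = 0.0167, adjusted p = 0.183). TRIAP1 had r = 0.93 (exact permutation p = 0.0236, adjusted p = 0.188) and rho = 0.77 (exact permutation p = 0.103, adjusted p = 0.42). POLH had r = 0.90 (exact permutation p = 0.0167, adjusted p = 0.188) and rho = 0.94 (exact permutation p = 0.0167, adjusted p = 0.183). Without the libraries farthest from the median of MDM2, knockdown 1 and control 1, r was 0.98 for FAS, 0.51 for TRIAP1 and 0.77 for POLH over the remaining 4. By rank the order differed, since TRIM22, named here after its values were seen, had the highest rho of 1 (exact permutation p = 0.00278, adjusted p = 0.0917), with r = 0.84 over the 6 libraries and r = 0.98 without those same libraries. No relation named here held after adjustment over the 33 members.

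The other genes of the pathway were read from lists that were likewise chosen with earlier results known. Of 26 other p53 targets, which include BCL2 family and CDK inhibitor genes, 24 were tested, 15 were above 0 (49.9% of all genes) and 0 had an adjusted p under 0.05. Their median log2 difference was 0.14, and 4 were higher at an unadjusted p under 0.05 (0.571% of all genes), namely ACTA2, BAX, CD82 and STEAP3, with 0.90, 0.68, 0.94 and 0.70. In pairs 1 to 3, 16, 12 and 19 of the 24 were higher in the knockdown, where 49.6%, 52.1% and 49.6% of all genes were. A fit that dropped the library labelled scrambled control 2 put 16 of 24 above 0 (50.4% of genes), and their median was 0.27. CDKN1A, the gene of the CDK inhibitor p21 and named for that role after its values were seen, was at 1464, 680.1 and 368 CPM in knockdown 1 to 3, against 465, 551 and 277 CPM in the libraries labelled scrambled control 1 to 3. Its groups overlapped, with a log2 difference of 0.96 (SE 0.51).

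Kinases, ligases and cofactors that act upstream of p53 were divided, with 11 of 21 tested genes above 0 (49.9% of all genes) and a median of 0.01. SETD7, a lysine methyltransferase, had 0.56, with 0.69, 1.04 and −0.004 in pairs 1 to 3. DYRK2, a kinase, had −0.84, with −0.13, −1.79 and 0.02 in those pairs. CREBBP, an acetyltransferase, had 0.33 and PPP1R13L, an inhibitor of p53 also called iASPP, had −0.58. Of the 8 nucleolar and ribosomal proteins that bind MDM2, 2 were above 0 (49.9% of all genes), with a median of −0.23. Without the library labelled scrambled control 2, 5 were above 0 (50.4% of genes), with a median of 0.10. RPL11, RPS7, RPL5 and NCL had −0.45, −0.28, −0.23 and 0.29.

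Mitotic genes that p53 represses through p21 and the DREAM complex lay below 0 in 14 of 16 cases (median −0.27 on the log2 scale), where 6847 of 13668 genes did. When the library labelled scrambled control 2 was left out, 16 of 16 lay below 0 (median −0.45), while 6978 of 13853 genes lay above 0. PRC1, CDC25C, CCNB2 and TOP2A had −0.37, −0.57, −0.35 and −0.33. The medians of the 16 genes in pairs 1 to 3 were −0.55, −0.14 and −0.07, beside −0.004, 0.05 and −0.002 over all genes. In these pairs 0, 5 and 2 of the 16 were higher in the knockdown, where 49.6%, 52.1% and 49.6% of all genes were. None of the 16 passed the test, and 0 had an unadjusted p under 0.05. In bulk RNA, a lower share of cells in mitosis and less of these transcripts per cell cannot be told apart.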

How the data were processed

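The authors deposited estimated counts by gene in 1 table for each library, without scaling to depth (totals 16408500 to 19077100). Per the submitters' processing notes, CASAVA 1.9, TopHat2 version 2, edgeR and build hg19 were used, with no role given. The sources used here give no counting tool, annotation or use of strand. Counts were rounded, filtered (filterByExpr, minimum count 10) and tested over 13668 genes with edgeR 4.0.16 in R 4.3.3 (TMM, glmQLFit, glmQLFTest, two-sided, Benjamini-Hochberg, threshold 0.05), the group being the only term. Printed CPM come from the unrounded counts, and 2 was the prior count for log2 CPM. With 3 libraries a group, an exact permutation of the group labels could give no p below 0.1, and none was run. The exact permutation p-values for likeness to MDM2 come from the 720 orderings of the 6 libraries.

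The members, lists and tests were chosen with earlier results of these data known. Per-library values were fixed for MDM2, MDM4, PPM1D and the 10 members with the smallest p, and for other lists up to 4 genes with the smallest p are named. The per-library values of other genes were added after they were seen. Same-numbered libraries had deviations from the group means that correlated at 0.127, 0.394 and 0.566. Other combinations had −0.581 to 0.164, and the highest of those, knockdown 2 with control 1, exceeded number 1. By log2 CPM, control 1 correlated with knockdown 1 to 3 at 0.969, 0.976 and 0.970. Knockdown 2 correlated with controls 1 to 3 at 0.976, 0.909 and 0.952. The library labelled scrambled control 2 correlated with knockdown 1 to 3 at 0.884, 0.909 and 0.880. Deviations sum to 0 within a group, so their correlations are not independent, and number 2 is not borne out separately from number 3. Same-numbered libraries are treated as pairs from these values and not from the labels, and the values bear out number 1 least. Alternatives were other scalings, no filter, DESeq2 1.42.0, limma-voom (limma 3.58.1), the replicate block and left-out libraries. In data simulated for this comparison (13529 genes tested), 6% of seeded 2-fold, 84% of 4-fold and 94% of 8-fold changes were recovered, with 9 false calls. Each gene was drawn on its own with its fitted dispersion, genes of low mean CPM were not seeded, and shifts of a whole library were not simulated. Overlapping exons were taken from GENCODE v29 (GRCh38).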

Additional observations from a re-analysis of the deposited data

How the results depend on the processing

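No gene was called at an adjusted p under 0.05 under any of the 15 alternatives. Genes with an unadjusted p under 0.05 numbered 242 with edgeR, 461 with DESeq2, 117 with limma-voom and 436 with the replicate block, and 33 to 1307 with 1 library left out. The number of members above 0 was 24 with all libraries and 18 to 32 with 1 library left out, and their median was 0.04 to 0.50. Members at an unadjusted p under 0.05 numbered 3 in the main fit, 2 with RLE scaling, 4 with library totals and 2 with no filter. They numbered 1 with limma-voom, 5 with the replicate block and 6 without both libraries numbered 2. With 1 library left out they numbered 0 to 7. Without control 3, 2 of 7 were higher, and 1307 of 13936 genes had such a p in either direction. Of the 34 members, 19 kept the sign of their log2 difference throughout and 15 did not. RRM2B (−0.013 with TMM) was 0.017 with upper quartile scaling, 0.081 with library totals, 0.11 with limma-voom and 0.11 with the replicate block, and TNFRSF10B was 0.045 with library totals, 0.036 with limma-voom and 0.046 with the replicate block. Without both libraries numbered 2, CCNG1, TNFRSF10B, GADD45B, BTG2, PLK2, TP53INP1, DDB2 and RRM2B were 0.076, 0.53, 0.22, 0.13, 1.08, 0.36, 0.0091 and 0.39. Without knockdown 1 and the library labelled scrambled control 2, an alternative added after seeing the data, TNFRSF10A, TNFRSF10B, BTG2, PLK2, TP53INP1, DDB2 and RRM2B were −0.011, 0.29, 0.28, 0.28, 0.81, 0.078 and 0.61. With 1 library left out, the ranges were −1.04 to 0.12 for CCNG1, −0.017 to 0.38 for TNFRSF10A, −0.35 to 0.57 for TNFRSF10B, −0.25 to 0.96 for GADD45A, −1.75 to 0.12 for GADD45B and −1.42 to 0.17 for BTG2. They were −1.12 to 0.83 for PLK2, −0.025 to 0.76 for PLK3, −0.11 to 0.63 for SESN1, −1.36 to 0.68 for TP53INP1, −0.14 to 0.22 for XPC, −1.06 to 0.037 for DDB2, −0.25 to 0.61 for RRM2B, −0.25 to 0.72 for PHLDA3 and −0.26 to 1.08 for ZMAT3. The upper end came without the library labelled scrambled control 2 for all but TNFRSF10A and XPC, and the cause of the changes was not tested. The replicate block changed no adjusted call. In the simulated data, 6% of seeded 2-fold changes were recovered, so differences of that size were rarely detected there. That simulation drew genes independently and held no shift of a whole library, so the rate in these libraries may differ.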
